A study of Homo sapiens with 30 samples.

Results

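Baseline gene expression was compared between NGP and SK-N-BE(2)c, established human neuroblastoma lines, in cells that had received a control antisense oligonucleotide (ASO). The comparison used the libraries labelled NCA, 3 of each line, chosen by their labels alone; these are 6 of the 30 libraries of the series. Both groups are titled NCA. Per the labels, they had been transfected with the negative control ASO, called NCA here, at 100 nM by lipofection, so neither group holds untreated cells. The data column of replicate 1 of each line is named NCA and those of replicates 2 and 3 NCA2, and whether these are the same oligonucleotide is not given in the sources used here. Most of the remaining libraries carry ASOs against NESPR, a long non-coding RNA. Among them, the ASO2 and ASO10 libraries of the same lines (3 per line and ASO) were used to see whether a difference between the lines was also present in libraries that the control comparison did not use. NESPR itself was not analysed under its own name.

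Neuroblastoma is a childhood tumour of the sympathoadrenal lineage, which descends from the neural crest and forms sympathetic neurons and the chromaffin cells of the adrenal medulla. Most neuroblastoma cells are in an adrenergic state, held by a circuit of transcription factors that includes HAND2, GATA3 and ISL1, and a mesenchymal state with neural crest and matrix genes is known beside it. Both lines are known to carry an amplified MYCN gene. NGP is also known for amplification of MDM2 and CDK4 on the long arm of chromosome 12. The copy number and sequence of these genes were not measured here.

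Each library held between 11905897 and 13774906 reads, recovered from the deposited normalized counts. Genes with at least 1 read numbered 21615 to 22030 (NGP) and 19939 to 20327 (SK-N-BE(2)c). Transcripts of the mitochondrial genome took 4.481% to 4.719% of the reads of NGP libraries, against 7.862% to 8.299% of those of SK-N-BE(2)c, and the part of this gap in other results was not tested. The tables of both lines share 1 scaling by the authors, with every library's median ratio to the geometric mean library at 1.012. Replicates differed by more than sampling noise in every pair (chi-square per degree of freedom 2.612 to 7.447), so none was taken for a copy. The labels do not say whether replicates were separate cultures, which of 2 library kits was used, or what day or batch a library belongs to, so the p-values measure only the spread between these libraries, and line, kit and batch cannot be told apart.

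The lines differed in most of their expressed genes. Of 14275 genes that averaged 10 or more normalized counts over the 6 libraries, 10841 (75.9%) were called different by limma on log2(normalized count + 1) at a Benjamini-Hochberg adjusted p under 0.05. NGP was higher for 5529 genes (38.7%) and SK-N-BE(2)c for 5312 (37.2%). Rescaling by TMM factors swapped the larger side, with 5217 and 5590. The median size of a log2 fold change over all genes tested was 0.622, and 4689 genes (32.8%) were called with a log2 fold change of 1 or more in size, 2556 (17.9%) higher in NGP and 2133 (14.9%) higher in SK-N-BE(2)c. A size of 5 or more was reached by 405 genes higher in NGP and 273 lower. Throughout, a log2 fold change is NGP minus SK-N-BE(2)c with 3 libraries per line, so a positive value is higher in NGP, and a difference called large is one of at least 1 on this scale.

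Many of the large differences were between a clearly counted gene and one almost without reads. Of the 10777 genes with a mean of at least 100 in one of the lines, 166 had at most 3 reads in each SK-N-BE(2)c library, 45 of them with no read at all. The reverse held for 108 genes in NGP, 23 of them with no read. Of the 166, 148 were also at or under 3 reads in every SK-N-BE(2)c library with ASO2 and 141 in every one with ASO10. For the 108, these numbers were 90 and 78. Such a gene reached the level tested only through the line where it was high, so that its call follows from that limit, and counts over gene lists are given as descriptions. Both sets lie along the edges of the plot of mean levels.

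**Figure D1:**
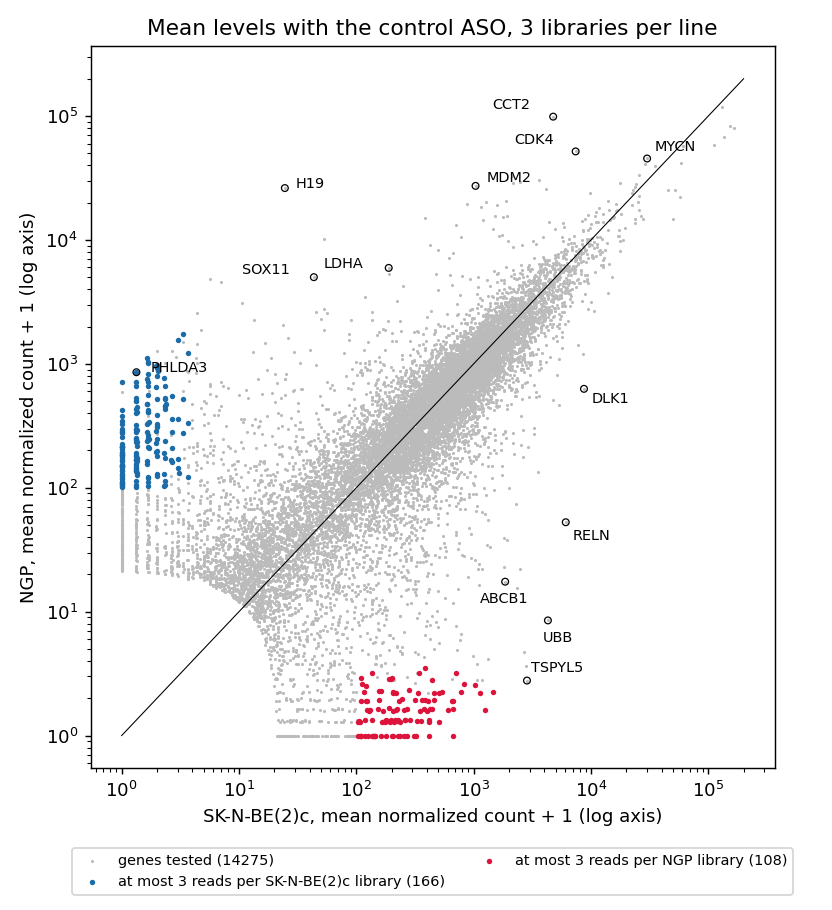
Mean normalized count + 1 of each of the 14275 genes tested in SK-N-BE(2)c (horizontal, log axis) and NGP (vertical, log axis), 3 control libraries per line; the line marks equal levels. Coloured points are the 166 genes with at most 3 reads in each SK-N-BE(2)c library and the 108 with at most 3 in each NGP library, at a mean of at least 100 in the other line; named genes are circled.

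The widest gap in NGP's favour was that of H19 (ENSG00000130600), the imprinted long non-coding RNA gene next to IGF2. Its normalized count was 27782, 25806 and 25118 in the NGP libraries against 28.3, 26.2 and 16.4 in those of SK-N-BE(2)c, a log2 fold change of 10.09 ± 0.15 (SE; limma adjusted p = 3.85e-13). MSN (ENSG00000147065), which encodes moesin, a linker of the membrane to actin, was counted at 4731, 4681 and 4992 against 4.19, 2.02 and 7.71. No library of one line came near those of the other for either gene. SV2C (ENSG00000122012), a synaptic vesicle glycoprotein gene, stood at 697, 613 and 810.2 in NGP and had no read in SK-N-BE(2)c, so that NGP was at least 698-fold higher against a floor of 3 reads over the 3 libraries. SYT9-AS1 (ENSG00000251364) was at 4346, 4245 and 5033 against 8.37, 1.01 and 8.67, a gene whose reads cannot be told from those of overlapping genes on the other strand because the use of strand in counting is not given. The sialyltransferase gene ST6GAL2, the collagen IV gene COL4A2, the peroxidasin gene PXDN, the nuclear receptor gene RORB, TSPAN11, LRRN1 and HSPA12A followed, with means between 707 (LRRN1) and 2573 (PXDN) in NGP and of at most 3.38 in SK-N-BE(2)c.

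In the other direction, TSPYL5 (ENSG00000180543), a gene of the nucleosome assembly protein family, was counted at 0.91, 4.43 and 0 in NGP against 2816, 2886 and 2846 in SK-N-BE(2)c, a log2 fold change of -10.35 ± 0.45 (SE; limma adjusted p = 1.43e-09). OAS3 (ENSG00000111331), an interferon-inducible sensor of double-stranded RNA, stood at 1.82, 0.886 and 5.13 against 2878, 2898 and 2680.3. Both genes were thus close to absent from the NGP libraries. ME1 (ENSG00000065833), the cytosolic malic enzyme gene, had no read in NGP against 652, 641 and 687 in SK-N-BE(2)c, where it was at least 705-fold higher, and the zinc finger gene ZNF320 had none against 416, 404 and 418 (at least 441-fold higher). The polyubiquitin gene UBB (ENSG00000170315) was at 4.55, 9.75 and 8.20 in NGP against 4151, 4197 and 4544 in SK-N-BE(2)c (log2 fold change -9.04 ± 0.20 (SE; limma adjusted p = 7.27e-12)), with the caution that its repeats are near-identical to those of related genes. The sodium-activated potassium channel gene KCNT1, STOM, TRIM14, the proteasome assembly factor gene PSMD5 and ADAMTS3 completed the largest differences on this side, with log2 fold changes between -9.23 (KCNT1) and -8.72. MTRNR2L1 also belongs here by its values (0.599 in NGP against 1252 in SK-N-BE(2)c), but it is a nuclear copy of mitochondrial sequence and its reads are uncertain.

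The adrenergic transcription factors were counted in both lines, and most were higher in NGP. Of 32 listed, 29 were tested: 17 were called higher in NGP and 10 lower, against 38.7% and 37.2% of all genes tested. The difference was large for 10 and 5 of them, against 17.9% and 14.9% of all genes tested. The median log2 fold change was 0.53 against 0.025 over all genes tested. The 9 fixed markers of the adrenergic state all had reads in every library, with summed levels of 47748 to 49475 (NGP) and 54293 to 59829 (SK-N-BE(2)c). The homeodomain factor gene PHOX2A did not differ beyond the replicate spread, at 3158 ± 310.4 in NGP against 3227 ± 273 in SK-N-BE(2)c (SD; limma adjusted p = 0.724). HAND2 (ENSG00000164107), a basic helix-loop-helix factor of sympathetic neurons, was at 12589.7, 13151 and 12552 against 6001, 5717 and 6021, a difference of 1.11 ± 0.051 (SE; limma adjusted p = 2.37e-09). GATA3, TFAP2B and INSM2 were higher in NGP by 0.51 to 0.60.

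Other factors of the list differed by more. ISL1 (ENSG00000016082), a LIM homeodomain factor of sympathetic neurons, was at 4253, 4265 and 4459 in NGP against 677, 629 and 673 in SK-N-BE(2)c (log2 fold change 2.71 ± 0.057 (SE; limma adjusted p = 4.63e-12)). SOX11 (ENSG00000176887), an SRY-box factor of immature neurons, was counted at 4907, 4888 and 5233 against 38.7, 45.4 and 43.4 (6.85 ± 0.085 (SE; limma adjusted p = 1.83e-13)). INSM1 (ENSG00000173404), a zinc finger factor of neuroendocrine cells, stood at 143, 130.3 and 137 in NGP and had no read in SK-N-BE(2)c, so that NGP was at least 136-fold higher. Each of these separated the lines without overlap, as 77.8% of all genes tested did. MEIS1, SATB1, DLX5 and LMO1 were also higher in NGP, by 2.25 (SATB1), 3.13 (MEIS1), 3.26 (LMO1) and 3.76 (DLX5). So was the long non-coding RNA LINC00682 (ENSG00000245870), with 743, 792 and 671 in NGP against 152, 135 and 157 in SK-N-BE(2)c (2.31 ± 0.10 (SE; limma adjusted p = 1.6e-09)).

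Other members of the circuit were higher in SK-N-BE(2)c. TBX2 (ENSG00000121068), a T-box repressor that drives proliferation in these tumours, was at 2185, 2289 and 1764 in NGP against 4848, 4438 and 4256 in SK-N-BE(2)c (log2 fold change -1.12 ± 0.090 (SE; limma adjusted p = 3.04e-07)). EYA1 (ENSG00000104313), a transcriptional cofactor, was at 184, 148 and 168 against 929, 877 and 967 (-2.47 ± 0.10 (SE; limma adjusted p = 6.99e-10)), and SIX3 (ENSG00000138083) at 88.3, 81.5 and 85.1 against 473, 489 and 454 (-2.46 ± 0.11 (SE; limma adjusted p = 1.42e-09)). Every SK-N-BE(2)c library exceeded every NGP library for these genes, and the lines did not overlap for 77.8% of all genes tested. GATA2, PBX3, KLF7, KLF13 and the Notch-responsive gene HEY1 were on the same side, with log2 fold changes from -1.54 (HEY1) to -0.38 (KLF7).

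The genes that carry out the adrenergic programme mostly went the other way. Of 30 genes of catecholamine synthesis, storage and neuropeptide granules, 25 were tested, all 25 were called, and 19 were higher in SK-N-BE(2)c, 14 of them by a large difference. The median log2 fold change of the 25 was -1.20. Among all genes tested, 75.9% were called and 37.2% were higher in SK-N-BE(2)c, 14.9% by a large difference. Tyrosine hydroxylase, the first and rate-limiting enzyme of catecholamine synthesis, was an exception: TH (ENSG00000180176) was counted at 3678, 3483 and 3421 in NGP against 1992, 1824 and 1674 in SK-N-BE(2)c (log2 fold change 0.95 ± 0.068 (SE; limma adjusted p = 1.14e-07)). The enzymes that follow it were higher in SK-N-BE(2)c. The decarboxylase gene DDC (ENSG00000132437) was at 1195, 1177 and 1162 against 2794, 2599 and 2727 (-1.20 ± 0.055 (SE; limma adjusted p = 2.42e-09)), and DBH (ENSG00000123454), which makes noradrenaline, at 959.7, 898 and 835 against 4152, 3346 and 3344 (-2.003 ± 0.087 (SE; limma adjusted p = 1.56e-09)). GCH1 and QDPR, which supply the tetrahydrobiopterin cofactor, differed in the same direction by -1.01 and -0.69.

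Genes of transport and storage were also higher in SK-N-BE(2)c. SLC18A1 (ENSG00000036565), the vesicular monoamine transporter of chromaffin cells, was counted at 33.7, 30.1 and 33.8 in NGP against 1393, 1342 and 1408 in SK-N-BE(2)c, a log2 fold change of -5.37 ± 0.10 (SE; limma adjusted p = 2.66e-12). The neuronal vesicular transporter gene SLC18A2 averaged 51.8 ± 6.80 in NGP against 414 ± 40.4 in SK-N-BE(2)c (SD), and SLC6A2 (ENSG00000103546), the noradrenaline transporter that takes up MIBG, was at 1922, 1927 and 1979 against 5491, 5318 and 5332 (-1.47 ± 0.050 (SE; limma adjusted p = 2.01e-10)). No NGP library reached a SK-N-BE(2)c library for any of them, and the lines did not overlap for 77.8% of all genes tested. The granins CHGA and CHGB, secretogranins SCG2 and SCG5 and the granule protein gene VGF had log2 fold changes of -0.77, -1.53, -0.88, -2.61 and -1.98.

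Neuropeptides and their processing enzymes split between the lines. VIP (ENSG00000146469), vasoactive intestinal peptide, was at 4.55, 7.09 and 5.13 in NGP against 677, 766 and 885 in SK-N-BE(2)c (-6.89 ± 0.19 (SE; limma adjusted p = 4.99e-11)), and NPY (ENSG00000122585), neuropeptide Y, at 36.4, 34.6 and 50.3 against 725, 640.2 and 735 (-4.10 ± 0.15 (SE; limma adjusted p = 4.2e-10)). ADCYAP1, which encodes the related peptide PACAP, had 2 reads over the NGP libraries and a mean of 188 in SK-N-BE(2)c. VIP, NPY and ADCYAP1 were thus low in NGP, while galanin (GAL) was counted in both lines, at 998 in NGP against 1536 in SK-N-BE(2)c. The convertases that cut peptide precursors showed the opposite pattern. CPE (ENSG00000109472), carboxypeptidase E, was at 451, 461 and 501 in NGP against 2.09, 2.02 and 0 in SK-N-BE(2)c (7.81 ± 0.38, SE). PCSK2 and PCSK1 had means of 87.5 and 25.3 in NGP and no read in SK-N-BE(2)c. MAOA, which breaks down monoamines, was also higher in NGP (277 in NGP against 12.4 in SK-N-BE(2)c).

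**Figure D2:**
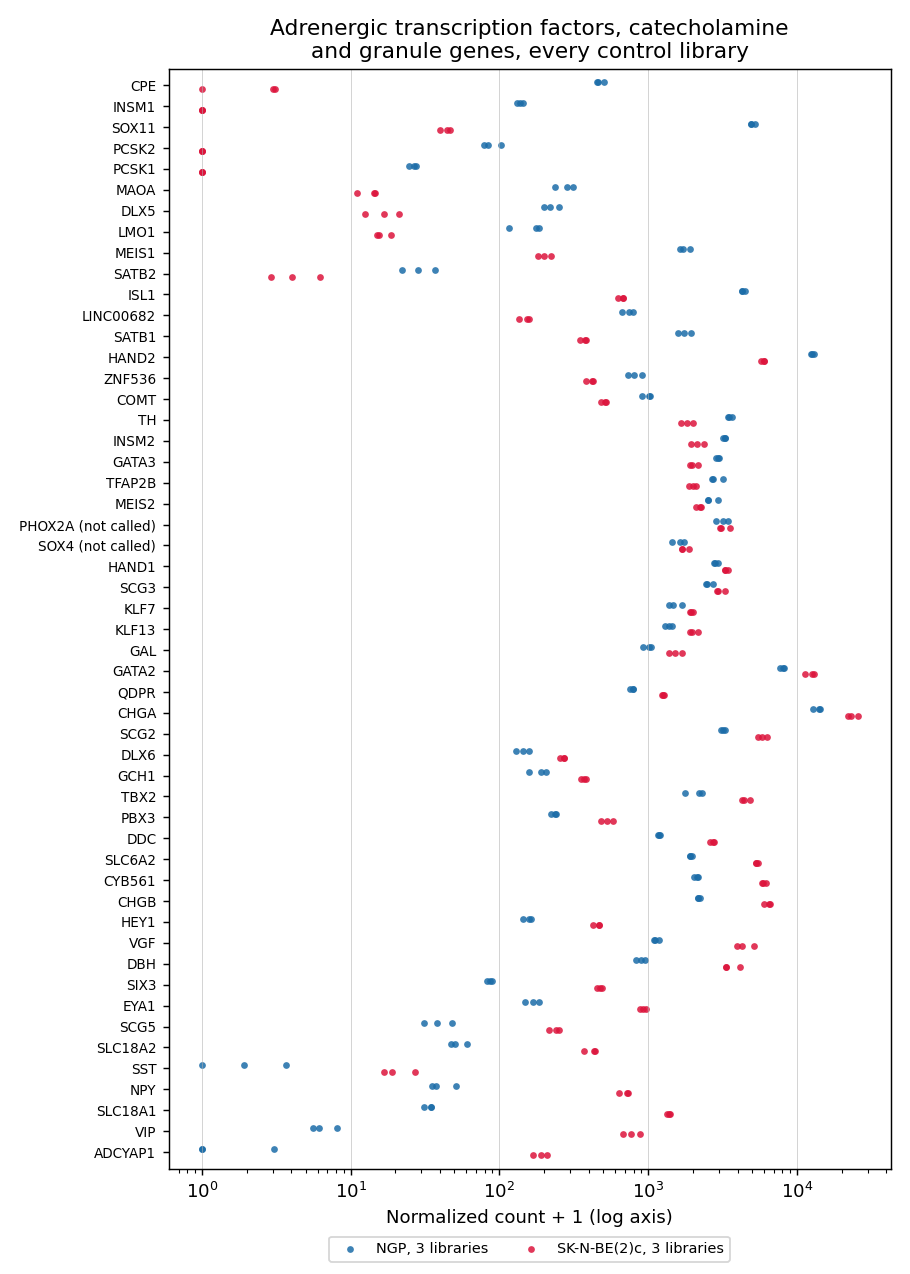
Normalized count + 1 (log axis) of tested adrenergic transcription factors (2 are not shown) and catecholamine and granule genes in each control library, 3 points per line, ordered by log2 fold change with genes higher in NGP at the top. Granule genes such as VIP, NPY and SLC18A1 sit at the bottom with SK-N-BE(2)c far to the right, while SOX11, ISL1 and CPE sit at the top.

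Mesenchymal genes did not mark either line as a whole. Of 42 listed, 19 stayed under the level tested. Of the 23 tested, 13 were higher in NGP and 8 lower, 11 and 6 by a large difference. Among all genes tested, 38.7% and 37.2% were called in these directions, 17.9% and 14.9% by a large difference. PRRX1, a homeodomain factor that defines the mesenchymal state, was at 0, 4.43 and 3.08 in NGP and 0 in each SK-N-BE(2)c library, and TWIST2 and YAP1 were near 0, with means of at most 0.349. FN1 (ENSG00000115414), fibronectin, was counted at 405, 377 and 380.5 in NGP against 8.37, 4.03 and 2.89 in SK-N-BE(2)c (log2 fold change 6.09 ± 0.29 (SE; limma adjusted p = 2.8e-09)), and VIM (ENSG00000026025), vimentin, at 9148, 9214 and 9042 against 2675, 2575 and 2529 (1.82 ± 0.050 (SE; limma adjusted p = 3.82e-11)). COL1A1, SPARC, SNAI1 and TWIST1 were on the same side, by 4.16 (COL1A1), 1.51 (SPARC), 1.92 (SNAI1) and 1.11 (TWIST1). By contrast, LGALS1 (ENSG00000100097), galectin 1, stood at 16.4, 22.2 and 24.6 against 2577, 2387 and 2511 (-6.84 ± 0.14 (SE; limma adjusted p = 3.72e-12)) and S100A6 (ENSG00000197956), a calcium-binding protein gene, at 3.64, 2.66 and 2.05 against 1046, 956 and 1177 (-8.15 ± 0.20 (SE; limma adjusted p = 1.55e-11)). CD44 and PDGFRB were also higher in SK-N-BE(2)c. Fibroblast markers did not move together: summed over 4 genes they lay between 122.9 and 137.3 (NGP), against 361 to 379.7 (SK-N-BE(2)c), with DCN at 5.89 in NGP against 253 in SK-N-BE(2)c, LUM at 69.3 in NGP against 115 in SK-N-BE(2)c and COL3A1 at 50.2 in NGP against 2.36 in SK-N-BE(2)c. Their part in the mesenchymal values was not tested. The leukocyte markers PTPRC and CD3E had no read in any of the 6 libraries. The 5 Schwann cell markers summed to 11.28 to 18.21 (NGP) and 47.09 to 63.61 (SK-N-BE(2)c). Of these, SOX10 had no read in any library, and only 1 was tested, which was called higher in SK-N-BE(2)c (log2 fold change -1.445). Their part in the other values was not tested.

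Genes known to be induced when DNA is damaged, many of which stop cell division or promote apoptosis, were mostly higher in NGP. The list also holds regulators of this response, but not the signalling genes H2AX, ATM and CHEK1, which were lower in NGP and are given with the genes of 11q. Of 33 listed, 31 were tested, 22 were called higher in NGP and 4 lower, 19 and 3 by a large difference, with a median log2 fold change of 1.29. The shares over all genes tested were 38.7% and 37.2%, with 17.9% and 14.9% large. CDKN1A (ENSG00000124762), the p21 inhibitor of cyclin-dependent kinases, was counted at 2441, 2514 and 1978 in NGP against 47.1, 53.4 and 46.3 in SK-N-BE(2)c, a log2 fold change of 5.53 ± 0.11 (SE; limma adjusted p = 3.32e-12). MDM2 (ENSG00000135679), a ubiquitin ligase gene, was at 27189.8, 26306 and 28486 against 986, 1057 and 1071 (4.72 ± 0.056 (SE; limma adjusted p = 1.83e-13)). MDM2 also belongs to the chromosome 12 genes, whose values follow.

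Some of these genes had hardly a read in SK-N-BE(2)c. PHLDA3 (ENSG00000174307), an inhibitor of AKT, was at 941, 955 and 669 in NGP against 0, 1.01 and 0 in SK-N-BE(2)c, with 1 read there in all and a ratio of 2577 (exact 95% interval 462 to 101817), which covers counting error only. The death receptor gene EDA2R (ENSG00000131080) was at 535, 539 and 514 against 0, 0 and 0.964, a ratio of 1582 (exact 95% interval 284 to 62526), and TNFRSF10B (ENSG00000120889), the TRAIL receptor, at 319, 315 and 267 against 2.09, 2.02 and 4.82 (6.31 ± 0.28 (SE; limma adjusted p = 1.52e-09)). SPATA18, a mitochondrial quality control gene, had a mean of 65.3 in NGP and no read in SK-N-BE(2)c (at least 65.3-fold higher). FAS, DDB2, ZMAT3, BBC3 and TP53INP1 were higher in NGP by 1.99 (BBC3) to 3.18 (TP53INP1) on the log2 scale, and BAX by 0.76. Of the list, 5 did not pass the test, among them SESN2 (1116 in NGP against 991 in SK-N-BE(2)c) and RRM2B (222 in NGP against 236 in SK-N-BE(2)c). TP53I3, the stress cytokine gene GDF15 and CMBL were among the 4 on the other side. CMBL (ENSG00000164237) had no read in NGP against 137, 123 and 165 in SK-N-BE(2)c (at least 152-fold higher there).

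**Figure D3:**
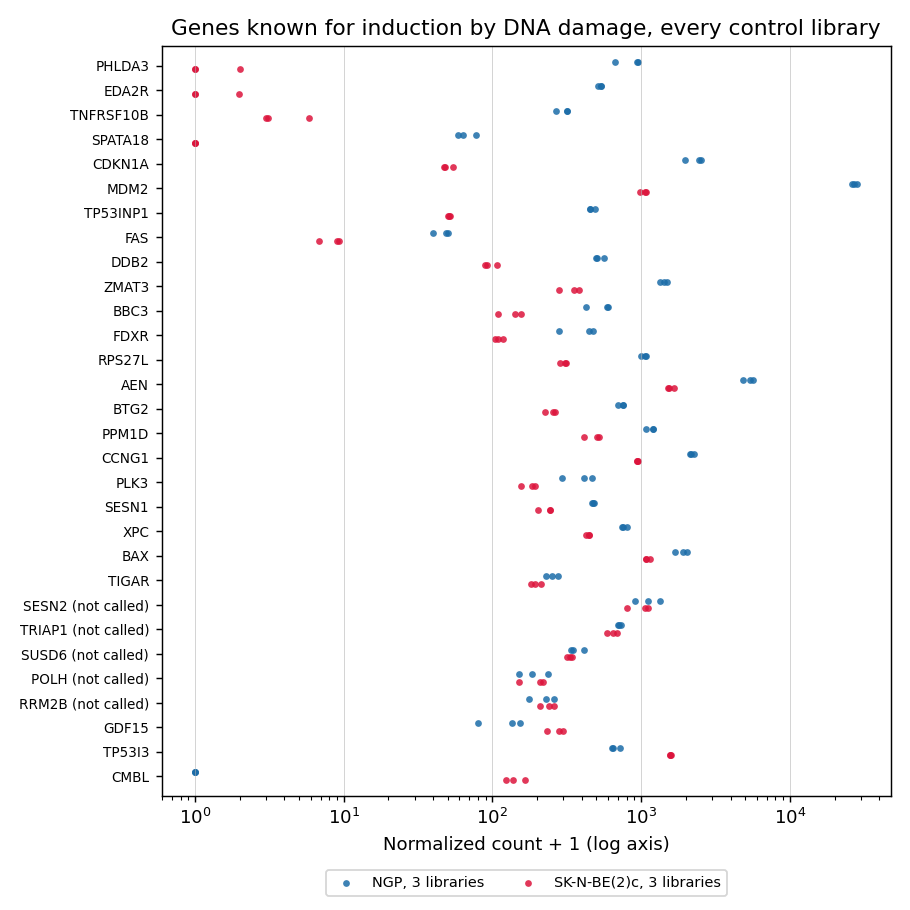
Normalized count + 1 (log axis) of 30 tested genes of the list of genes induced by DNA damage in each control library, 3 points per line, ordered by log2 fold change with genes higher in NGP at the top. For PHLDA3, EDA2R and SPATA18 the SK-N-BE(2)c points lie at or next to 1, which is no read, and for CMBL the NGP points do.

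AEN, FDXR and RPS27L also separated the lines without overlap, as 77.8% of all genes tested did. AEN (ENSG00000181026), an apoptosis-linked nuclease gene, was at 5431, 5677 and 4819 in NGP against 1656, 1546 and 1525 in SK-N-BE(2)c (1.75 ± 0.068 (SE; limma adjusted p = 5.97e-10)). FDXR (ENSG00000161513), ferredoxin reductase, was at 472, 442 and 279 against 108, 117 and 103 (1.82 ± 0.18 (SE; limma adjusted p = 1.65e-06)), and RPS27L (ENSG00000185088) at 1076, 1058 and 997 against 309.7, 308 and 283 (1.79 ± 0.075 (SE; limma adjusted p = 1.14e-09)).

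Along chromosome 12, genes higher in NGP stood side by side. Chosen by these values, and so given as a description, 3 runs of neighbouring protein-coding genes were each higher in NGP by 1 or more on the log2 scale: 13 genes from AGAP2 to SLC16A7 (median log2 fold change 3.52), 13 from RAP1B to KCNMB4 (median 4.42) and 33 from CAMKK2 to KMT5A (median 3.41). The 59 genes together had a median of 3.58. Outside the runs, the 588 other tested coding genes of chromosome 12 had a median of -0.24, with 159 called higher in NGP and 304 lower. The limit of 1 on the log2 scale set the borders, and values fell steeply at several of them, as the plot along chromosome 12 shows. Just before CAMKK2, P2RX7 and P2RX4 were also called higher in NGP, by 0.84 and 0.68. USP15 and MON2, the tested neighbours after SLC16A7, had log2 fold changes of -1.51 and -1.59, and PTPRB and PTPRR, after KCNMB4, had -0.37 and -2.45.

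**Figure D4:**
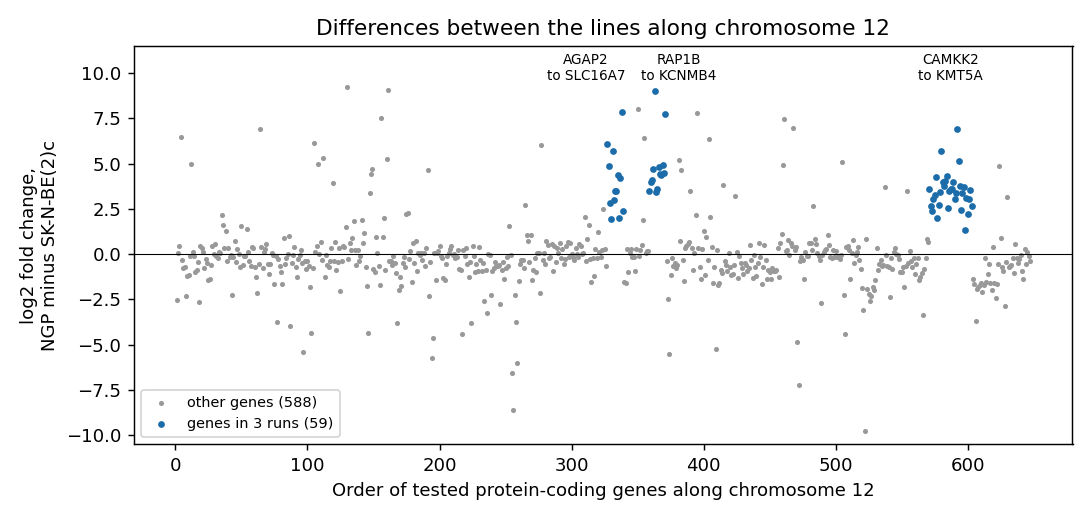
Log2 fold change, NGP minus SK-N-BE(2)c, of the 647 tested protein-coding genes of chromosome 12 in their order along the chromosome (rank, not position). Blue points are the 59 genes of the 3 runs, all above 0, between 1.353 and 9.021; grey points are the 588 other genes.

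The first run holds CDK4 (ENSG00000135446), the cyclin D-dependent kinase that starts S phase, with 52925, 52572 and 50014 in NGP against 7543, 7326 and 7353 in SK-N-BE(2)c (log2 fold change 2.81 ± 0.052 (SE; limma adjusted p = 1.99e-12)). Next to it lie the tetraspanin gene TSPAN31 (3470.4 in NGP against 119 in SK-N-BE(2)c), the RNA methyltransferase gene METTL1 (3981 in NGP against 495 in SK-N-BE(2)c) and the GTPase regulator gene AGAP2 (323 in NGP against 3.99 in SK-N-BE(2)c). The second run holds MDM2 and CCT2 (ENSG00000166226), a subunit of the TRiC chaperonin, at 98038, 99239 and 99459.6 against 4511, 4753 and 5034 (4.38 ± 0.057 (SE; limma adjusted p = 1.83e-13)). FRS2 (ENSG00000166225), the adaptor of FGF receptors, was at 9071, 8566 and 9512 against 442, 405 and 422 (4.42 ± 0.061 (SE; limma adjusted p = 2.5e-13)), and YEATS4, a reader of acetylated histones, at 5326 in NGP against 188 in SK-N-BE(2)c on average. For all of these, each NGP library lay far above each SK-N-BE(2)c library. CPM, a membrane carboxypeptidase gene, stood apart further, with 2 reads over the SK-N-BE(2)c libraries and a mean of 748 in NGP (ratio 1108 (exact 95% interval 306 to 9155)).

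The third run lies farther out on the long arm. It includes BCL7A (ENSG00000110987), a subunit of the SWI/SNF remodelling complex, at 18407, 18098 and 18383 in NGP against 1179, 1158 and 1115 in SK-N-BE(2)c (3.99 ± 0.050 (SE; limma adjusted p = 1.83e-13)). MLXIP (ENSG00000175727), which encodes MondoA, a partner of MLX in the extended MYC network, was at 29126, 28892 and 29113 against 2301, 2101 and 2053 (3.76 ± 0.056 (SE; limma adjusted p = 3.55e-13)). DIABLO, which releases caspases from their inhibitors, averaged 2372 in NGP against 398 in SK-N-BE(2)c, and KNTC1, a kinetochore gene, 30494 in NGP against 3627 in SK-N-BE(2)c. Of the 59 genes of the runs, 58 were tested with ASO2 and 59 with ASO10, and each of those tested was again called higher in NGP. LYZ was the gene not tested with ASO2. With these treatments, CDK4 differed by 2.52 with ASO2 and 2.43 with ASO10, CCT2 by 4.18 with ASO2 and 4.24 with ASO10, MLXIP by 3.67 with ASO2 and 3.91 with ASO10 and MDM2 by 5.45 with ASO2 and 6.03 with ASO10. Of the list of genes of bands 12q13 to 12q15, chosen with earlier results of these data known, 37 of 44 were tested. Of these, 28 were higher in NGP and 4 lower, against 38.7% and 37.2% of all genes tested. The list is therefore a description and not separate support for the runs. DDIT3, the stress factor CHOP, lies in this list outside the runs and was higher in SK-N-BE(2)c (519.7 in NGP against 1199 in SK-N-BE(2)c).

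The MYC network differed less. MYCN (ENSG00000134323) was abundant in both lines, at 46057, 43295 and 47028 in NGP against 32304, 28362 and 29682 in SK-N-BE(2)c. Its log2 fold change was 0.59 ± 0.066 (SE; limma adjusted p = 5.1e-06), with no overlap, as for 77.8% of all genes tested. MYC averaged under 10 over the 6 libraries and was not tested (12.7 in NGP against 4.02 in SK-N-BE(2)c). Of 17 members, 16 were tested, with a median of 0.64. Of these, 10 were higher in NGP and 3 lower, beside 38.7% and 37.2% of all genes tested. DDX1, which is often amplified with MYCN, did not differ beyond the replicate spread (5233 ± 36.9 in NGP against 5317 ± 477 in SK-N-BE(2)c, SD), and neither did MAX, the shared partner (1043 in NGP against 1046 in SK-N-BE(2)c). CYRIA (ENSG00000197872), an actin regulator gene near MYCN, was at 1798, 1802 and 2053 against 6.28, 2.02 and 2.89 (8.74 ± 0.27 (SE; limma adjusted p = 9.23e-11)). The antagonist genes MXI1 and MNT were higher in NGP by 1.75 and 0.89. MYCNOS, antisense to MYCN, had 683 in NGP against 333 in SK-N-BE(2)c, and its reads cannot be told from those of MYCN without the use of strand.

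Regulators of the step from G1 to S phase were called about as often as other genes. Of 31 listed, 29 were tested, with 11 higher in NGP and 13 lower, 5 large on each side. Among all genes tested, 38.7% and 37.2% were called in these directions, 17.9% and 14.9% by a large difference. Besides CDK4 and CDKN1A, CDKN2A (ENSG00000147889), which encodes the inhibitor p16 and the MDM2 inhibitor ARF, was higher in NGP at 1220.1, 1444 and 1131 against 323, 332 and 328 (1.94 ± 0.090 (SE; limma adjusted p = 2.63e-09)). CDKN2C (ENSG00000123080), the p18 inhibitor of CDK4 and CDK6, was at 19.1, 31.9 and 27.7 in NGP against 1032, 913 and 907 in SK-N-BE(2)c (-5.15 ± 0.17 (SE; limma adjusted p = 1.84e-10)). CDKN2A and CDKN2C, which each encode an inhibitor of the kinase CDK4, thus went opposite ways as whole genes in these libraries. Reads of p16 and ARF were not told apart. RB1, the target of the kinase, was lower in NGP (805 in NGP against 1494 in SK-N-BE(2)c), and CCND1, its cyclin, higher (12059 in NGP against 8627 in SK-N-BE(2)c).

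Of 45 receptor tyrosine kinases and neurotrophin receptors listed, 33 were tested: 16 were higher in NGP and 14 lower, against 38.7% and 37.2% of all genes tested. The difference was large for 11 and 9 of them, against 17.9% and 14.9% of all genes tested. Their median log2 fold change was only 0.057. ALK (ENSG00000171094), a driver of familial neuroblastoma, was at 758, 790.4 and 895 in NGP against 122, 94.8 and 119 in SK-N-BE(2)c (2.86 ± 0.12 (SE; limma adjusted p = 1e-09)). KIT (ENSG00000157404), the receptor of stem cell factor, was at 121, 91.3 and 118 in NGP and had no read in SK-N-BE(2)c (at least 109-fold higher). The ephrin receptor gene EPHA7, with a mean of 211 in NGP, had none there either (at least 208-fold higher). PDGFRA averaged 197 in NGP against 3.39 in SK-N-BE(2)c. On the other side, EGFR (ENSG00000146648), the EGF receptor, was counted at 200.3, 204 and 234 against 2939, 2896 and 2952 (-3.78 ± 0.075 (SE; limma adjusted p = 2.66e-12)) and ROR2 (ENSG00000169071), a WNT5A receptor, at 30.96, 20.4 and 41.02 against 836, 683 and 678 (-4.57 ± 0.21 (SE; limma adjusted p = 2.57e-09)). TYRO3, EPHB3 and DDR1 were higher in SK-N-BE(2)c as well. RET, the GDNF receptor, was close in the lines, at 4938 ± 240.1 in NGP against 4021 ± 96.8 in SK-N-BE(2)c (SD), and was still called (0.29; limma adjusted p = 0.000374). IGF1R and NGFR did not pass the test (1588 in NGP against 1523 in SK-N-BE(2)c, and 21.1 in NGP against 20.9 in SK-N-BE(2)c).

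Surface antigens used as targets in this tumour were mostly higher in SK-N-BE(2)c. Of 30 listed, 25 were tested, with 16 higher there and 5 in NGP, 10 and 3 by a large difference, and a median log2 fold change of -0.87. The shares over all genes tested were 37.2% and 38.7%, with 14.9% and 17.9% large. L1CAM (ENSG00000198910), a neural adhesion molecule, was at 1192, 1271 and 1122 in NGP against 9364, 8350.0 and 7969 in SK-N-BE(2)c (-2.84 ± 0.070 (SE; limma adjusted p = 1.77e-11)). DLK1 (ENSG00000185559), an imprinted membrane ligand, was at 655, 619 and 609 against 9920.0, 8097 and 8157 (-3.79 ± 0.078 (SE; limma adjusted p = 3.82e-12)), and THY1 (ENSG00000154096) at 808, 847 and 769 against 5358, 4992 and 4914 (-2.65 ± 0.061 (SE; limma adjusted p = 8.78e-12)). All SK-N-BE(2)c libraries were above all NGP libraries, and the lines did not overlap for 77.8% of all genes tested. NCAM1, CD276 (B7-H3), ALCAM and CD47, a signal against phagocytosis, were on the same side by smaller amounts, from -1.14 (NCAM1) to -0.58 (CD276), and MCAM and NECTIN2 by more (-6.08 and -6.60). NGP had the higher GPC2 (ENSG00000213420), a glypican, at 822, 917 and 777 against 109.9, 125 and 100.2 (2.90 ± 0.11 (SE; limma adjusted p = 4.97e-10)). It also had the higher ST8SIA1 (ENSG00000111728), the GD3 synthase that opens the path to the ganglioside GD2, at 101, 117 and 114 against 1.05, 1.01 and 0, a ratio of 165 (exact 95% interval 45.3 to 1368). B4GALNT1, which makes GD2 from GD3, was at 1669 in NGP against 1378 in SK-N-BE(2)c. Gangliosides were not measured.

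Antigen presentation and interferon genes, taken as a single list, were mostly lower in NGP among those tested. Of 40 listed, 21 stayed under the level tested. Of the other 19, 13 were higher in SK-N-BE(2)c and 4 in NGP, 11 and 2 by a large difference, with a median of -1.72. Over all genes tested, the shares were 37.2% and 38.7%, with 14.9% and 17.9% large. B2M (ENSG00000166710), the light chain of class I molecules, was at 1508, 1469 and 1623 in NGP against 4878, 4999 and 5640.0 in SK-N-BE(2)c (-1.75 ± 0.067 (SE; limma adjusted p = 5.47e-10)). HLA-B and HLA-C averaged 23.05 in NGP against 43.8 in SK-N-BE(2)c, and 17.9 in NGP against 264 in SK-N-BE(2)c; reads of these similar, polymorphic genes can be assigned to one another, so their values are uncertain. The loading genes TAP2 (ENSG00000204267) and TAPBP (ENSG00000231925) were at 0, 1.77 and 3.08 against 120.3, 91.7 and 121 and at 0, 3.54 and 7.18 against 204, 276 and 248 (-5.63 and -6.18). Both were near 0 in NGP. NLRC5, the activator of class I genes, and IRF1 were lower in NGP (-3.93 and -3.47), whereas RIGI, a sensor of viral RNA, was higher (32.5 in NGP against 5.03 in SK-N-BE(2)c).

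The tested HOX genes, a family that sets position along the body axis, were mostly higher in SK-N-BE(2)c. Of 41 listed, 28 were under the level tested, 14 of them without a read in any of the 6 libraries. Over the whole list, 15 genes had no read in NGP and 22 had none in SK-N-BE(2)c. Of the 13 tested, 10 were higher in SK-N-BE(2)c and 2 in NGP, against 37.2% and 38.7% of all genes tested. All 10 differed by a large amount, where 14.9% of all genes tested did so on that side. Several of the 10 lie in the C cluster. HOXC10 (ENSG00000180818) was at 0.91, 1.77 and 0 in NGP against 652, 666 and 689 in SK-N-BE(2)c, a ratio of 715 (exact 95% interval 244 to 3469) in favour of SK-N-BE(2)c, and HOXC8 (ENSG00000037965) at 8.19, 10.6 and 1.03 against 399, 352 and 413 (-6.01 ± 0.50 (SE; limma adjusted p = 4.38e-07)). The long non-coding RNA HOTAIR (ENSG00000228630), antisense to this cluster, was at 2.73, 0.886 and 0 against 465, 461 and 455 (-7.91 ± 0.39, SE). HOXC11, which HOTAIR adjoins, had no read in NGP and a mean of 95.3 in SK-N-BE(2)c, and the pair may share reads. HOXC6 and HOXC9 went the same way (-2.28 and -3.74), while HOXC13 did not pass the test (11.1 in NGP against 11.01 in SK-N-BE(2)c). HOXA7 was the one large exception, at 78.3, 70.9 and 69.7 in NGP against 1.05, 0 and 0.964 in SK-N-BE(2)c.

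Imprinted genes, expressed from 1 parental copy, held wide gaps on both sides. Of 35 listed, 24 were tested and 10 were higher in each line (38.7% and 37.2% over all genes tested). The difference was large for 6 and 8 (17.9% and 14.9% over all genes tested). Next to H19, IGF2 (ENSG00000167244) was at 2712, 2589 and 2603 in NGP against 3140.3, 2702 and 2725 in SK-N-BE(2)c and did not pass the test (limma adjusted p = 0.136). PEG3 (ENSG00000198300), a zinc finger gene, was at 659, 708 and 813 against 5.23, 1.01 and 1.93 (7.77 ± 0.34 (SE; limma adjusted p = 1.55e-09)), and GRB10 (ENSG00000106070), an adaptor that restrains insulin receptors, at 539.9, 473 and 489 against 0, 1.01 and 0 (ratio 1495 (exact 95% interval 268 to 59102)). PPP1R9A had a mean of 275 in NGP and no read in SK-N-BE(2)c. Opposite to these, NDN (ENSG00000182636), necdin, was at 2.73, 1.77 and 3.08 in NGP against 368, 399 and 379.7 in SK-N-BE(2)c (-6.78 ± 0.22, SE). The cluster of DLK1 and MEG3 (ENSG00000214548) was higher in SK-N-BE(2)c for all 5 tested members: MEG3, a long non-coding RNA, was at 6454, 5924 and 6912 against 15254, 13259 and 14405 (-1.15 ± 0.070 (SE; limma adjusted p = 2.64e-08)), and RTL1, MEG8 and MEG9 had log2 fold changes of -1.23, -1.58 and -2.37.

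Genes of the neuronal cytoskeleton and neuronal RNA-binding proteins leaned to NGP. Of 35 listed, 33 were tested, with 22 higher there and 10 in SK-N-BE(2)c (median 0.60), against 38.7% and 37.2% of all genes tested. DCX (ENSG00000077279), doublecortin, was at 5072, 4877 and 5830.3 against 621, 610.0 and 641 (3.07 ± 0.070 (SE; limma adjusted p = 9.16e-12)), and ELAVL2 (ENSG00000107105), which encodes HuB, at 1633, 1482 and 1739 against 26.2, 24.2 and 25.1 (5.95 ± 0.11 (SE; limma adjusted p = 1.99e-12)). ELAVL4 (HuD) followed by 1.92. The peripheral intermediate filament gene PRPH (ENSG00000135406) was instead higher in SK-N-BE(2)c, at 1081, 1209.6 and 986 against 5460.2, 5438 and 5237 (-2.30 ± 0.072 (SE; limma adjusted p = 1.07e-10)), as was NEFM (ENSG00000104722), the medium neurofilament, at 2595, 2693 and 2714 against 10553, 10055 and 11261 (-1.99 ± 0.056 (SE; limma adjusted p = 4.99e-11)). The separation was complete in each case, as it was for 77.8% of all genes tested. MAPT (tau), STMN2 and GAP43, a growth cone gene, were on that side too (-3.43, -1.57 and -0.74). The heavy neurofilament gene NEFH went with NGP (0.84), so filament genes were split.

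Receptors for transmitters and ion channels were more often higher in NGP. Of 55 listed, 45 were tested, with 25 higher there, 22 by a large difference, and 12 in SK-N-BE(2)c, 7 by a large difference (median 0.84). The shares over all genes tested were 38.7% and 37.2%, with 17.9% and 14.9% large. GRIA1 (ENSG00000155511), an AMPA receptor subunit gene, was at 449, 448 and 529 in NGP against 0, 1.01 and 0.964 in SK-N-BE(2)c, a ratio of 706 (exact 95% interval 195 to 5837). KCNQ3 (ENSG00000184156), a subunit of the M-current channel, was at 325, 310.1 and 440.0 against 3.14, 0 and 1.93 (7.27 ± 0.43, SE). GRIA2, GRIA3, GRIK3 and GRIK5, all glutamate receptor genes, and the glycine receptor gene GLRB were higher in NGP, and KCND2, GABRA3, GLRA3 and CACNA1C had no read in SK-N-BE(2)c. The ganglionic nicotinic receptor genes CHRNA3 and CHRNB4 differed by 1.02 and 0.55. On the other side stood KCNH2 (ENSG00000055118), the hERG potassium channel, at 1693, 1872 and 1477 against 5639, 4877 and 4700.3 (-1.59 ± 0.090 (SE; limma adjusted p = 1.37e-08)), the dopamine receptor gene DRD2 (90.9 in NGP against 464 in SK-N-BE(2)c) and the adrenergic receptor gene ADRA2C (129.8 in NGP against 566 in SK-N-BE(2)c).

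**Figure D5:**
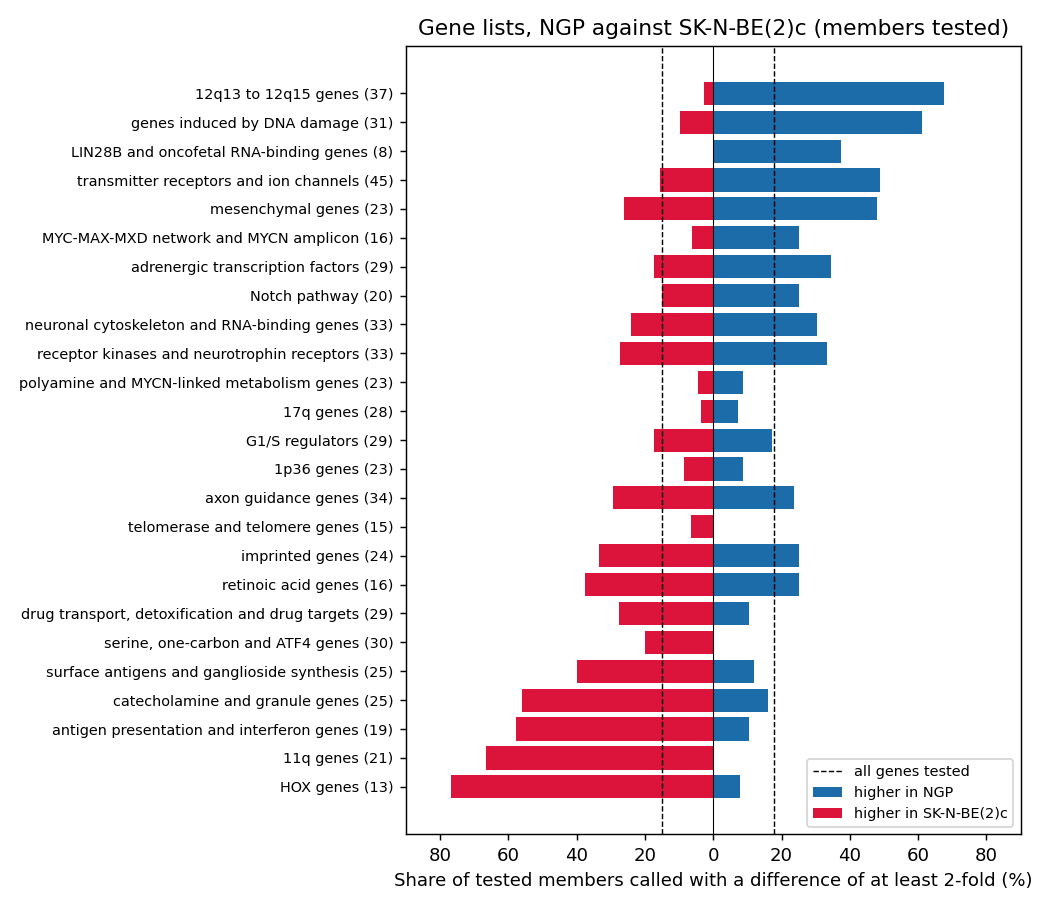
Share of the tested members of each gene list (number tested in brackets) called with a difference of at least 2-fold, higher in NGP to the right and higher in SK-N-BE(2)c to the left. Dashed lines mark 17.9% and 14.9%, the shares over all 14275 genes tested; lists share some genes, and no list was tested as a set.

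LDHA (ENSG00000134333), the lactate dehydrogenase subunit that favours lactate, was at 5900.1, 5665 and 6286 in NGP against 145, 199 and 219.7 in SK-N-BE(2)c (4.997 ± 0.12 (SE; limma adjusted p = 1.61e-11)), while LDHB was at 10811 in NGP against 16999 in SK-N-BE(2)c (-0.65). The polyamine enzyme gene ODC1, a MYCN target, did not pass the test (7029.7 ± 112 in NGP against 7301 ± 348 in SK-N-BE(2)c, SD), and 3 of the 23 tested genes of polyamine and MYCN-linked metabolism differed by a large amount, where the share over all genes was 32.8%. Genes of serine and one-carbon synthesis and of the ATF4 stress response were mostly higher in SK-N-BE(2)c, 20 of 30 tested against 4 higher in NGP. Of the 20, 6 differed by a large amount. The shares over all genes tested were 37.2% and 38.7%, with 14.9% large and higher in SK-N-BE(2)c. PHGDH (ENSG00000092621), the first enzyme of serine synthesis, was at 2569, 2479 and 2496 against 4552, 4263 and 4304 (-0.80 ± 0.052 (SE; limma adjusted p = 5.09e-08)), and TRIB3 (ENSG00000101255), a stress-induced pseudokinase, at 259, 329 and 217 against 1834, 2059 and 1417 (-2.72 ± 0.15 (SE; limma adjusted p = 1.37e-08)). ATF4 itself differed by -0.33, and ASNS did not pass the test (1912 in NGP against 1894 in SK-N-BE(2)c).

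Chromosome regions that neuroblastoma is known to gain or lose were also compared. Of 21 tested genes of 11q, 18 were higher in SK-N-BE(2)c, 14 by a large difference, and 2 in NGP (median -1.34). Among all genes tested, 37.2% were higher in SK-N-BE(2)c and 38.7% in NGP, 14.9% and 17.9% by a large difference. H2AX (ENSG00000188486), the histone variant that marks DNA breaks, was at 769, 687 and 638 in NGP against 3088, 2683 and 2506 in SK-N-BE(2)c (-1.98 ± 0.089 (SE; limma adjusted p = 1.88e-09)), and CADM1 (ENSG00000182985), an adhesion gene, at 236, 209 and 309.7 against 931, 835 and 1059 (-1.91 ± 0.14 (SE; limma adjusted p = 1.04e-07)). ATM and CHEK1, kinases of the DNA damage response, and KMT2A were on the same side (-0.82, -1.27 and -1.34), while CCND1 and GAB2 were the 2 on the other. Of 28 tested genes of 17q, 16 were higher in NGP and 6 lower, with few large differences (2 and 1) and a median of 0.21. Of 23 tested genes of 1p36, 14 were higher in NGP and 7 lower. Large differences made up 10.7% of the tested 17q genes and 17.4% of those of 1p36, against 32.8% of all genes tested. In 1p36, the kinesin gene KIF1B was higher in NGP by 1.14. CASZ1, a zinc finger gene of sympathetic development, averaged 14.2 in NGP against 324 in SK-N-BE(2)c.

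Whole chromosomes differed in the balance of called coding genes, which was 37.2% higher in NGP and 40.2% higher in SK-N-BE(2)c over all 12094. On chromosome 18, 77.1% of 179 genes were higher in NGP and the median log2 fold change was 0.73. On chromosome 20, 70.7% of 331 genes were higher in SK-N-BE(2)c, with a median of -0.56, and on chromosome 21 the share was 69.2% of 107 genes (median -0.41). In windows of 15 neighbouring genes, the 3 with the lowest medians lay on chromosome 19 from ZNF480 to ZNF677 (-3.25), on chromosome 9 from DBH to KCNT1 (all 15 called higher in SK-N-BE(2)c) and on chromosome 11 from TRAPPC4 to THY1 (-1.95). In the first, the zinc finger genes ZNF320 and ZNF808 had no read in NGP, while ZNF347 and ZNF578 of the same window were higher there. DBH, THY1 and MCAM, described with the granule genes and antigens, thus lie in windows whose tested genes were all lower in NGP.

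The differences between the lines were then set beside those in the ASO2 and ASO10 libraries, which share no library with the controls. These libraries are of the same lines, so line, kit and batch cannot be told apart in them either. With ASO2, 11050 of 14092 genes tested were called (78.4%), and with ASO10 11609 of 14853 (78.2%). Large differences made up 33.6% and 34.2% of the genes tested. Of 13547 genes tested in all 3 comparisons, 10323 were called with the control ASO. The same call was made for 9092 of these with ASO2 (88.1% of the control calls and 84.9% of the 10713 ASO2 calls) and for 9164 with ASO10 (88.8%, and 84.9% of the 10793 ASO10 calls), and the opposite call for 90 and 83. Of the 4218 with a large difference, 4024 (95.4%) were called the same way in both. SOX11 differed by 6.92 with ASO2 and 7.09 with ASO10, ISL1 by 2.16 with ASO2 and 2.38 with ASO10, DBH by -2.50 with ASO2 and -2.17 with ASO10 and SLC18A1 by -5.40 with ASO2 and -5.63 with ASO10. CDKN1A differed by 6.51 with ASO2 and 6.77 with ASO10 and EGFR by -3.95 with ASO2 and -3.69 with ASO10.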

How the data were processed

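RNA of NGP and SK-N-BE(2)c cells was sequenced, and the authors deposited 1 table of normalized counts per line, per the labels, a normalized signal in which gene counts were divided by a size factor per library. The submitters' processing notes name FastQC 0.11.8, cutadapt 1.18, STAR 2.6.0, HTSeq 0.6.1 and DESeq2 1.42.0 and the builds hg19 and GRCh37; whether counting used strand is not given in the sources used here. Per the labels' protocols, libraries were made with a stranded total RNA or a stranded mRNA kit, without saying which library had which. Total RNA libraries also hold unspliced and non-polyadenylated RNA, which can change which genes are counted. Control replicate 1 of each line has a column named NCA and replicates 2 and 3 NCA2, while the titles put all 3 in 1 group, which was followed here.

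The tables hold 57905 genes each (0 rows without a gene ID), joined by ID, and 69.7% matched a symbol. No per-sample column was left unused (0). Steps between low values gave whole reads for 100% of values (within 0.01 of a whole number). Values were tested as log2(value + 1), if the 6 libraries averaged 10 or more, with limma 3.58.1 in R 4.3.3 (mean-variance trend, two-sided, Benjamini-Hochberg adjustment over all genes tested). A fold change on this scale understates the change of low genes. Genes without a read in a line are given a bound against 3 reads over its 3 libraries, and genes with 1 to 3 reads a ratio with an exact 95% interval. Both cover counting error only. With 3 against 3 libraries, a single-gene permutation test cannot go below 0.1, so none is given. The script was tested on simulated data.

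The members and the 26 gene lists were chosen from knowledge of neuroblastoma with earlier results of these data known. Genes were named by rule: the 12 largest differences in each direction with a mean of at least 100 and no overlap, the 5 smallest adjusted p in each direction, the key members of each list and its 2 largest differences in each direction, and windows of 15 coding genes. Other list members, the chromosome 12 runs and the genes with at most 3 reads were chosen after their values were seen. GENCODE release 29 gave gene order, type and exon length, and symbols for some genes that had none otherwise. A few genes that these rules name, and a promoter search, are not reported here; list counts and medians include every listed gene that was tested. Alternatives were other scalings, pseudocounts of 0.1 and 5, mean limits of 1 and 100 and none, edgeR 4.0.16 and DESeq2 1.42.0 on recovered reads, all 18 libraries in 1 fit, no trend, a replicate block and leaving out libraries.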

Additional observations from a re-analysis of the deposited data

Results flagged for a closer look

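A difference between the lines was called in one direction with the control ASO and in the other with ASO2 for 90 genes and with ASO10 for 83. The 3 of them with the largest differences with the control ASO are given here. All 3 were opposite with ASO10, and the difference of the differences passed limma's interaction test over the 18 libraries. The genes were picked for opposite calls in libraries that this test also uses, so passing it is no separate support. QRICH2 (ENSG00000129646) had a log2 fold change of 2.00 with the control ASO and of -0.56 with ASO10, a gap of -2.57 (adjusted p = 7.11e-08). With ASO10 it stood at 288, 292 and 239 in NGP and at 361, 442 and 409 in SK-N-BE(2)c. GPR157 (ENSG00000180758) had -1.47 and 0.80, a gap of 2.27 (limma adjusted p = 0.000796). STOX1 (ENSG00000165730), a winged helix gene, had -1.45 and 0.69, a gap of 2.14 (limma adjusted p = 0.00951), at low counts of 24.5, 42.8 and 31.6 in NGP and 17.7, 24.5 and 17.2 in SK-N-BE(2)c with ASO10.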

How the results depend on the processing

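The count of 10841 genes lay between 7967 (mean of at least 100) and 13047 (any value above 0) under the other settings for it, edgeR gave 10995 and DESeq2 10551. A log2 fold change of 1 or more in size left 4689 genes with the control ASO, 4738 with ASO2 and 5087 with ASO10. Leaving out 1 library gave 10096 to 10706, 10517 to 10866 and 11038 to 11348, and leaving out replicate 1 of both lines 9489 with the control ASO. Same-numbered control libraries of the lines deviated together by correlations of 0.008, 0.055 and 0.113, so the numbers were not taken to pair them; with a replicate block 11254, 11050 and 11810 genes were called. Of 4594 values of named genes under other settings, 4502 kept direction and side of the threshold and 17 changed sign, none of a called gene. These were PHOX2A (0.031 without replicate 1 of both lines; -0.101 to 0.041 leaving out 1 library), DDX1 (0.009 at equal totals; -0.09 to 0.039), MAX (0.024 at equal totals; -0.017 to 0.010), NGFR (-0.021 with TMM factors; -0.143 to 0.254), ROBO2 (-0.105 to 0.321) and ASNS (-0.033 with TMM factors, -0.045 without replicate 1 of both lines; -0.062 to 0.087). The cause was not tested. Depth limits genes near 10 normalized counts, where a few reads set the value.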

Other observations

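Retinoic acid genes, studied because retinoids differentiate neuroblastoma cells, gave 6 genes higher in NGP and 8 lower of 16 tested, where 38.7% and 37.2% of all genes tested were called. CRABP2 (ENSG00000143320), which carries retinoic acid to its receptor, was at 398, 343 and 372 in NGP against 72.2, 75.6 and 79.03 in SK-N-BE(2)c (2.28 ± 0.12 (SE; limma adjusted p = 6.85e-09)), and its relative CRABP1 (ENSG00000166426) at 27.3, 17.7 and 24.6 against 430.1, 407 and 458 (-4.18 ± 0.17 (SE; limma adjusted p = 1.12e-09)). The carriers thus went opposite ways. The receptor gene RARB had 2 reads in all in SK-N-BE(2)c and a mean of 35.96 in NGP, and RARG and RXRA were higher in SK-N-BE(2)c (-2.27 and -1.87).

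Of 29 tested genes of drug transport, detoxification and drug targets, 14 were higher in NGP and 12 lower, 3 and 8 by a large difference. Over all genes tested, 38.7% and 37.2% were called in these directions, 17.9% and 14.9% by a large difference. ABCB1 (ENSG00000085563), the P-glycoprotein drug pump, was at 17.3, 17.7 and 14.4 in NGP against 1816, 1821 and 1931 in SK-N-BE(2)c (-6.74 ± 0.12 (SE; limma adjusted p = 1.53e-12)). MGMT (ENSG00000170430), which repairs alkylated guanine, had no read in NGP against 95.2, 90.7 and 87.7 in SK-N-BE(2)c (at least 97.2-fold higher there), and NQO1, a quinone reductase, averaged 70.1 in NGP against 1065 in SK-N-BE(2)c. The topoisomerase genes TOP2A and TOP2B were higher in NGP (0.35 and 1.09) and TOP1 in SK-N-BE(2)c (-0.47).

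Of 34 axon guidance genes tested, 13 were higher in NGP and 16 lower, beside the same 38.7% and 37.2% over all genes tested. SEMA5A (ENSG00000112902) was at 437, 423 and 521 against 2.09, 1.01 and 0.964 (7.64 ± 0.24, SE). By contrast, PLXND1 (ENSG00000004399), a semaphorin receptor, was at 178, 169 and 184 against 2882, 2527 and 2439 (-3.88 ± 0.080 (SE; limma adjusted p = 3.98e-12)). RELN (ENSG00000189056), reelin, a guide of migrating neurons, was at 52.8, 46.97 and 55.4 against 6639.5, 5716 and 5946 (-6.86 ± 0.088 (SE; limma adjusted p = 1.83e-13)). In the Notch pathway, 9 of 20 tested genes were higher in NGP and 6 lower, beside 38.7% and 37.2% of all genes tested. The ligand gene JAG1 (ENSG00000101384) was at 433, 499 and 505 against 1.05, 3.02 and 8.67 (6.798 ± 0.43 (SE; limma adjusted p = 3.57e-08)). Of 8 tested genes of the LIN28B group, 7 were higher in NGP, against 38.7% of all genes tested. LIN28B (ENSG00000187772), which blocks let-7 maturation, was at 2722, 2467 and 3007 against 932, 891 and 981 (1.54 ± 0.076 (SE; limma adjusted p = 4.09e-09)), and the call of IGF2BP3 was lost without NGP replicate 3 (0.137; limma adjusted p = 0.0597), without SK-N-BE(2)c replicate 1 (0.251; 0.0555) and without SK-N-BE(2)c replicate 3 (0.227; 0.0728). Telomerase and telomere genes differed little: 7 of 15 tested did not pass the test, TERT among them (50.00 in NGP against 57.2 in SK-N-BE(2)c), and 6.7% differed by a large amount, against 32.8% of all genes tested. None of the 28 listed cancer-testis genes reached the level tested (0 of 28), with summed levels of 1.03 to 4.55 (NGP) and 17.4 to 21.2 (SK-N-BE(2)c).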
